A study of Homo sapiens and Mus musculus with 18 samples.

Results

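Immediate early genes are switched on by pre-existing transcription factors within minutes of a stimulus, without new protein synthesis, and their mRNAs are short lived. Growth factors, serum, calcium, mechanical strain and dissociation of cells are known inducers, acting through the ERK and other MAP kinases on serum response factor with its partner ELK1 and on CREB. Their products include the AP-1 subunits of the FOS, JUN and ATF families, the zinc finger factors of the EGR family, and phosphatases that switch the kinases off again.

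The genes described are FOS, FOSB, JUN, JUNB, ATF3, EGR1, EGR2, EGR3, IER2 and DUSP1, taken by symbol. These 10 genes were among 66733 gene IDs in the human count data of the series, and each had 1 Ensembl ID in both sets of counts: ENSG00000170345, ENSG00000125740, ENSG00000177606, ENSG00000171223, ENSG00000162772, ENSG00000120738, ENSG00000122877, ENSG00000179388, ENSG00000160888 and ENSG00000120129, in the order above. The list was chosen by earlier results of these data, in which the FOS and EGR1 counts were high in MLC against MesoT day 18. The contrast of MLC with MesoT day 18, and every other that uses either group, is therefore given as a description without a test. Tests are given for MesoT-derived MLC against MesoT day 22 and for the smooth muscle library against MesoT FCS. Their groups are outside that contrast, but the members' levels in all human libraries were known when the list was set. Both fits also draw their spread in part from MesoT day 18, and the second from MLC. The p-values of the members are therefore not independent of the choice of genes.

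Poly-A RNA was sequenced from cells made from the human embryonic stem cell line WA09. MLC, mesothelium-like cells, were made by replating splanchnic mesoderm at 150000 cells per cm2 with 20 μM of the TGF-beta receptor inhibitor SB431542 and 4 μM retinoic acid, and were 18 days old in all. MesoT-derived MLC were MesoT cells replated at the same density in that medium. MesoT FCS were MesoT cells kept to passage 4 in 10% fetal bovine serum with 8 ng/ml FGF2. The smooth muscle came from splanchnic mesoderm that stayed in culture. MesoT, the mesenchymal form of mesothelium, was made from splanchnic mesoderm with 25 ng/ml WNT3A, 50 ng/ml BMP4 and 4 μM retinoic acid and was collected at day 22 or at day 18. The labels name collagenase IV, TrypLE Select or both as the enzymes that lifted the human cells, without saying which was used on which MesoT library. Time between lifting and lysis is not stated.

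Counts came in sets that were scaled apart. Set 1, one file per library, held 2 MLC, 2 MesoT FCS, 1 smooth muscle and 2 MesoT day 18 libraries. Set 2, a single table, held 2 MesoT-derived MLC, 2 MesoT day 22 and the same 2 MesoT day 18 samples counted again. Levels are CPM, counts per 1000000 counts of a library after TMM scaling, which compare 1 gene across libraries of 1 set and not different genes. Where a group has 2 values without further words, replicate 1 comes before replicate 2. Totals lay between 21148477 and 31435480 counts, except for the MLC libraries with 70679258 and 65709545. For the day 18 samples, the CPM of a member in set 2 was between 0.715 and 1.61 times that in set 1. Mesothelial WT1 had 217 and 148 CPM in MLC, 5.58 and 3.405 in MesoT FCS, 1 count in the smooth muscle library and 25.9 and 46.2 CPM in MesoT day 18. The summed CPM of the 9 mesothelium markers, in which abundant genes weigh most, did not follow WT1. They summed to 1400 CPM in the smooth muscle library, 1176 and 1076 in MLC, 1151 and 691 in MesoT FCS, and 484 and 492 in MesoT day 18. UPK3B, one of them, was highest in MLC like WT1, with 55.8 and 38.1 CPM. It had 0.714 and 0.0558 CPM in MesoT FCS, 1.14 in smooth muscle and 15.1 and 34.4 in MesoT day 18. MSLN had 3.21 and 2.04 CPM in MLC and 1.79 in smooth muscle. The sum is therefore no measure of how mesothelial a library is. The library labelled smooth muscle held smooth muscle markers at a summed 1200 CPM. This was below both MesoT FCS libraries (7435 and 1793 CPM) and MesoT day 18 replicate 1 (1676 CPM). It was above MesoT day 18 replicate 2 (286 CPM) and MLC (239 and 222 CPM). The smooth muscle library also held stratified epithelium markers at 2977 CPM, including KRT5 at 870 CPM, where the other libraries of set 1 summed between 1.51 and 14.0 CPM. In bulk samples such as these, more cells that express a gene and more RNA per cell cannot be told apart.

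Promoter sequences are shown for the members with a CArG box or a cAMP response element in the window, EGR1, EGR2 and DUSP1, and for FOS and FOSB, which had the highest ratios between the MesoT-derived MLC libraries. The windows are the 250 bases before the RefSeq transcription start on GRCh38.p14, written 5′ to 3′ on the gene's strand. Capitals mark a CArG box (the core of the serum response element: CC, then 6 bases that are A or T, then GG), the cAMP response element TGACGTCA, or the TATA motif TATAAA.
EGR1 (chr5:138465229-138465478, plus strand): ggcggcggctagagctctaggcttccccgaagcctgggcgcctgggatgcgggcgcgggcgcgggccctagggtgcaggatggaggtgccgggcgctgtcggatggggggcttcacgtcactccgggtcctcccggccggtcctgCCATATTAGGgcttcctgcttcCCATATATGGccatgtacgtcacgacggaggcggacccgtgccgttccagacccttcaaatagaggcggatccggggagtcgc
EGR2 (chr10:62816367-62816616, minus strand, the start farthest downstream of 3): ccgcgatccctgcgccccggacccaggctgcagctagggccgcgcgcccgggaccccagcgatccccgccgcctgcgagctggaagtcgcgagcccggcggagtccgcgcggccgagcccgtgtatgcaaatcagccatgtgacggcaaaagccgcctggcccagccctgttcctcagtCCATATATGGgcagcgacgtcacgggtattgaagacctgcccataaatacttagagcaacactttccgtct
DUSP1 (chr5:172771196-172771445, minus strand): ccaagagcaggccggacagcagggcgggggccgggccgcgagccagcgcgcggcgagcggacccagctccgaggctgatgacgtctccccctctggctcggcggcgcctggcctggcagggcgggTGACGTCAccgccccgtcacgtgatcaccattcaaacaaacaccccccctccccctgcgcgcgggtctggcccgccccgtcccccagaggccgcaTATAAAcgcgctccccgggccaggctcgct
FOS (chr14:75278578-75278827, plus strand): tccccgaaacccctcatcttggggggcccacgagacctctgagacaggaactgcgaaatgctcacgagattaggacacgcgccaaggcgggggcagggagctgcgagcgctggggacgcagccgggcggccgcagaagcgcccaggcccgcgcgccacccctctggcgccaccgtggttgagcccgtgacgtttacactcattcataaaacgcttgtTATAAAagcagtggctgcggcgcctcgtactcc
FOSB (chr19:45467746-45467995, plus strand): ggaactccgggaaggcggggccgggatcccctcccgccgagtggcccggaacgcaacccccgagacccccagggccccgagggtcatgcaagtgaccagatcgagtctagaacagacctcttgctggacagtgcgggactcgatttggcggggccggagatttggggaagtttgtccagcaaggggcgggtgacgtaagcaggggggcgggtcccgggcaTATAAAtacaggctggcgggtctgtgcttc

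RefSeq promoters were found for 9 of the 10 members, with 12 windows in all. EGR3 is named only. A CArG box was found for 2 of the 9 genes, and in 1.16% of 35116 promoter windows of the same length. EGR1 had 2 such boxes, at positions -105 to -96 and -83 to -74 counted back from the start, and EGR2 had 1 at -71 to -62. The cAMP response element was found for 1 gene, DUSP1 at -125 to -118, and in 1.65% of all windows. TATAAA was found for 5 of the 9 genes, in FOS, FOSB, JUNB and DUSP1 between -33 and -25 and in the downstream start of ATF3 at -230 to -225, against 10.7% of all windows. The ETS motif CCGGAA was in the windows of FOSB and IER2 and in 14.53% of all windows. The AP-1 motif, TGACTCA or TGAGTCA, was in 0 of the 9 and 4.20% of all windows. The EGR motif, GCGGGGGCG or GCGTGGGCG, was in 0 of the 9 and 5.37% of all windows. Both strands were searched, and no 2 matches in these windows overlapped. These are matches of letters in short windows, and nothing here measures binding.

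In the 2 libraries labelled MesoT-derived MLC the 10 genes stood far apart. Replicate 2 of MesoT-derived MLC had the highest level of all 10 members among the 6 libraries of set 2, while replicate 1 lay near or below MesoT. The 10 genes took 0.414% of all counts in replicate 2 (95% Wilson interval 0.412 to 0.416) and 0.0210% in replicate 1 (0.0205 to 0.0215). In MesoT day 22 and day 18 of the same set they took between 0.0283% and 0.0458%. Intervals cover counting error only.

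FOS and FOSB encode the AP-1 subunits that pair with JUN proteins. FOS had 4.98 and 813 CPM in MesoT-derived MLC, 10.1 and 9.55 in MesoT day 22, and 14.4 and 3.85 in MesoT day 18. FOSB had 4.64 and 357 CPM in MesoT-derived MLC, 4.80 and 5.81 in MesoT day 22, and 22.4 and 6.45 in MesoT day 18. For both genes replicate 2 of MesoT-derived MLC stood alone: it held 163 times the FOS and 77.0 times the FOSB of replicate 1, the highest and second highest log2 ratios of replicate 2 over replicate 1 among 22316 genes.

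JUN, JUNB and ATF3, the other AP-1 family members, followed at smaller ratios. JUN had 68.7 and 729.8 CPM in MesoT-derived MLC, 91.3 and 99.2 in MesoT day 22, and 112.9 and 113.0 in MesoT day 18. JUNB had 16.8 and 169 CPM in MesoT-derived MLC, 39.5 and 21.8 in MesoT day 22, and 90.2 and 20.5 in MesoT day 18. ATF3, a stress-induced factor that also represses, had 13.01 and 117 CPM in MesoT-derived MLC, 21.5 and 14.3 in MesoT day 22, and 34.9 and 11.1 in MesoT day 18. JUN and JUNB of replicate 1 lay below every MesoT library, so the 2 libraries of 1 group were the lowest and the highest of set 2.

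EGR1, EGR2 and EGR3 encode zinc finger transcription factors induced by growth factor signalling. EGR1 had 19.1 and 1315 CPM in MesoT-derived MLC, 28.2 and 10.2 in MesoT day 22, and 55.5 and 8.25 in MesoT day 18. EGR2 had 0.615 and 16.8 CPM in MesoT-derived MLC, 3.03 and 0.799 in MesoT day 22, and 7.94 and 0.586 in MesoT day 18. EGR3 had 1.16 and 27.3 CPM in MesoT-derived MLC, 1.77 and 1.31 in MesoT day 22, and 7.20 and 0.990 in MesoT day 18. Replicate 2 of MesoT-derived MLC was the highest library for each of the 3. It held 69.02 times the EGR1, 27.3 times the EGR2 and 23.5 times the EGR3 of replicate 1.

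DUSP1, a phosphatase that inactivates MAP kinases, had 22.5 and 657 CPM in MesoT-derived MLC, 33.1 and 22.8 in MesoT day 22, and 57.6 and 20.8 in MesoT day 18. IER2, a nuclear protein of the same early response, had 74.1 and 248 CPM in MesoT-derived MLC, 68.5 and 67.3 in MesoT day 22, and 111 and 66.3 in MesoT day 18. DUSP1 differed 29.2-fold between the MesoT-derived MLC libraries and IER2 3.35-fold, the narrowest of the 10.

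**Figure D1:**
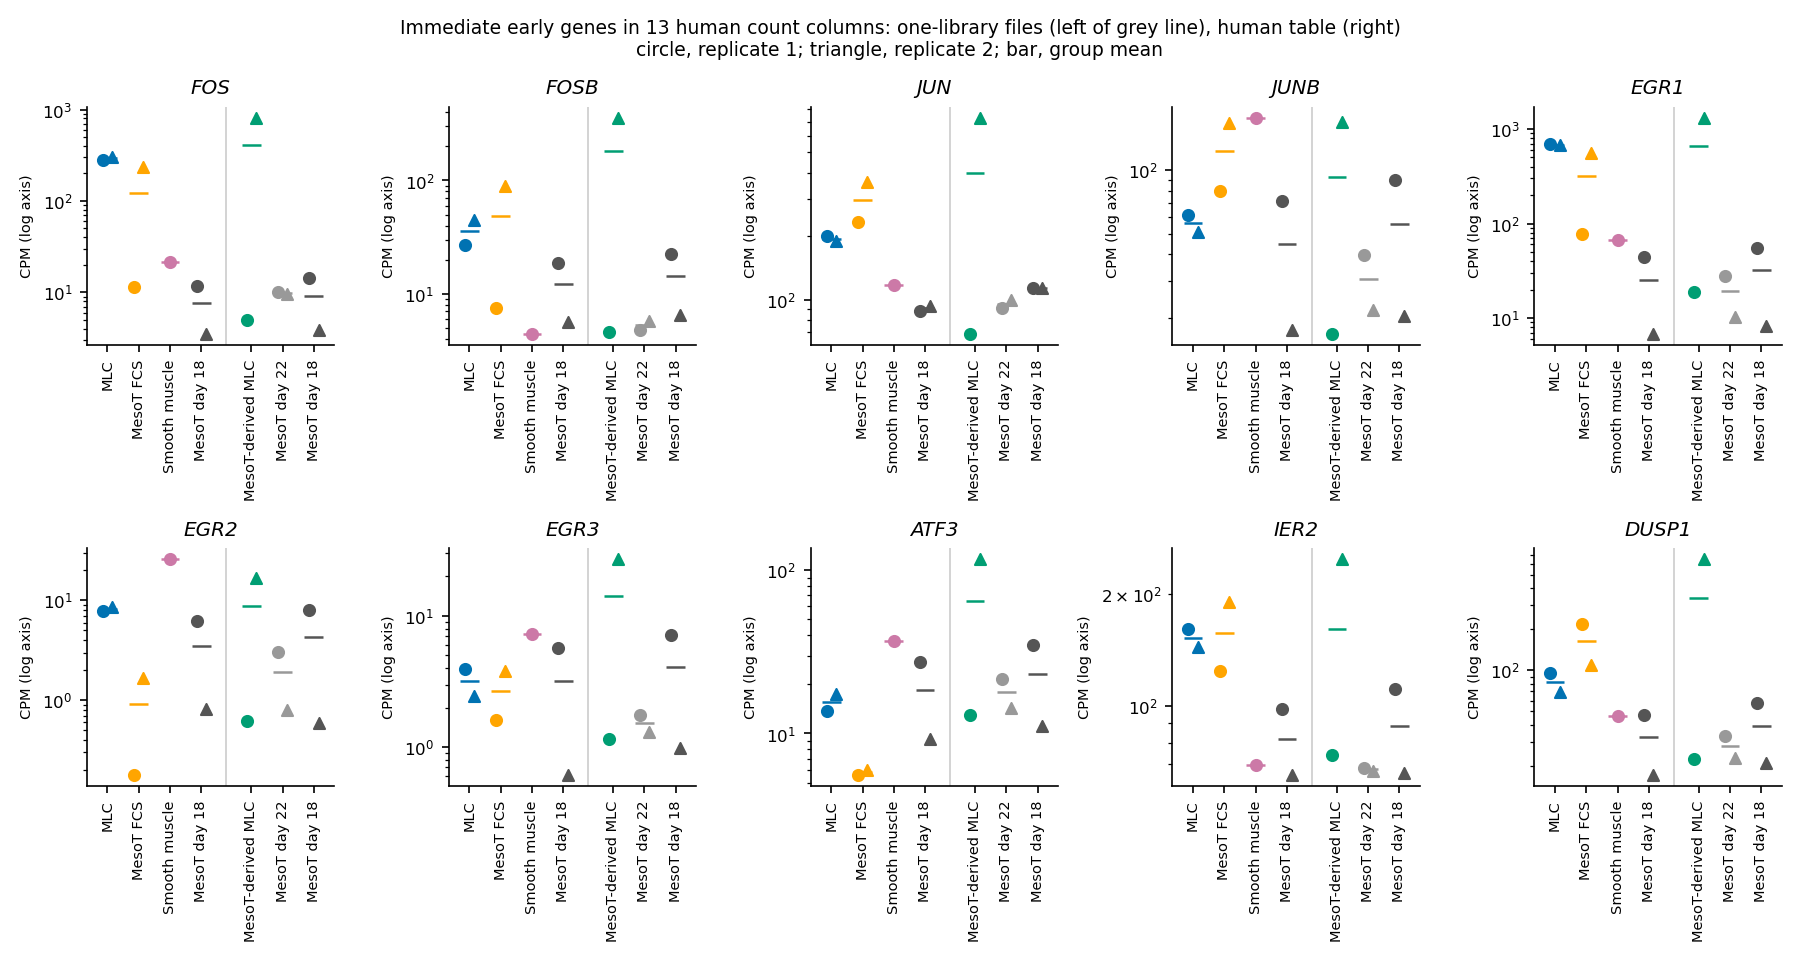
CPM (log axis) of each gene in 13 count columns: MLC, MesoT FCS, smooth muscle and MesoT day 18 of set 1 left of the grey line, MesoT-derived MLC, MesoT day 22 and MesoT day 18 of set 2 right of it. Circles are replicate 1, triangles replicate 2 and bars group means; in every panel the triangle of MesoT-derived MLC is the highest point of set 2.

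Of the 10 members, 9 were over 4-fold higher in replicate 2 than in replicate 1 of MesoT-derived MLC, where 0.439% of the 22316 genes were. The median log2 ratio was 4.55 over the members and 0.00 over all genes. Of the members, 8 were among the 20 genes with the highest ratio and 9 among the 100 highest, and IER2 was at rank 169. CCN2, CCN1, NR4A1 and ZFP36, early response genes that are not members, stood among them. CCN2, a secreted matricellular protein, had 44.8 and 1785 CPM in the MesoT-derived MLC libraries, and CCN1, its relative, 80.4 and 1670.

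The other lists showed how far the difference between these libraries reached. Of 39 other immediate early genes, 37 passed the filter on low counts and 9 were over 4-fold higher in replicate 2, with a median log2 ratio of 1.14. These 9 were CCN1, CCN2, NR4A1, NR4A2, ZFP36, TRIB1, CSRNP1, KLF6 and BTG2. Of 16 measured feedback inhibitors of ERK and EGR, DUSP6 (10.5 and 95.4 CPM) and DUSP5 (21.4 and 120.5 CPM), both ERK phosphatases, were over 4-fold higher in replicate 2, and the median log2 ratio was 0.66. None of 22 upstream kinases and factors passed 4-fold, and their median was 0.00. SRF's partner ELK1 had 60.3 and 65.0 CPM. AP-1 partners had a median of 0.46 with 0 of 12 past 4-fold. Of 18 AP-1 and delayed response targets, 1 was over 4-fold higher, the collagenase MMP1 at 0.376 and 2.39 CPM, and their median was -0.16.

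Genes of heat shock and of dissociation stress were level between the same libraries, with 0 of 15 past 4-fold, a median log2 ratio of -0.07 and a range of -0.72 to 0.22. HSPA1A, an inducible chaperone, had 31.9 and 30.3 CPM. Replicate 2 also held more hepatocyte and gut epithelium markers, which summed to 272 CPM against 92.9 CPM in replicate 1, with 5 of the 8 that passed the filter over 4-fold higher. Of these 9 markers, 0 were at 0 counts in either library. Mesothelium markers summed to 2742 CPM in replicate 2 and 2046 CPM in replicate 1. Mitochondrial transcripts took 4.4% of counts in replicate 2 and 3.00% in replicate 1. The part of these differences, and of the handling of the cells, in the levels of the 10 genes was not tested.

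**Figure D2:**
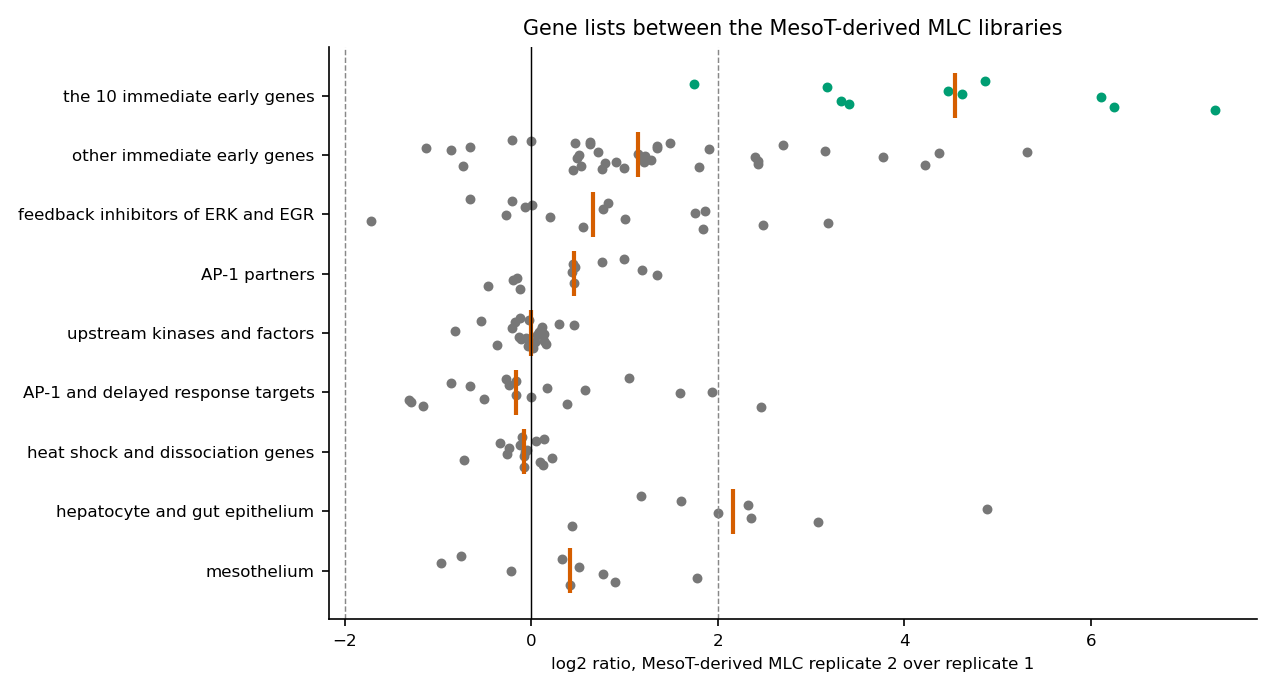
Log2 ratio of replicate 2 over replicate 1 of MesoT-derived MLC for each gene that passed the filter, by list; dots are genes, orange bars list medians and dashed lines 4-fold. The 10 immediate early genes lie between 1.74 and 7.33, while the heat shock genes lie between -0.72 and 0.22.

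The other groups were set beside this one by the same ratio. In MesoT FCS, 4 members were over 4-fold higher in replicate 2, where 2.41% of 23049 genes were. FOS had 11.5 and 233 CPM in the MesoT FCS libraries, a 20.3-fold difference, and FOSB 7.50 and 89.3 CPM, an 11.9-fold difference. EGR1 had 77.4 and 553 CPM, and EGR2 0.179 and 1.67 CPM from 4 and 30 counts. The set did not move as one here, since ATF3 was level at 5.58 and 5.97 CPM and DUSP1 was lower in replicate 2, with 218 and 110.0 CPM. Of 38 other immediate early genes, 1 was over 4-fold higher in that replicate. Smooth muscle markers were lower in it, with 5 of 9 past 4-fold and sums of 7435 CPM in replicate 1 and 1793 CPM in replicate 2. Their part in the levels of the members was not tested.

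MesoT day 18 differed the opposite way. In set 1, 9 of 10 members were lower in replicate 2 than in replicate 1, and JUNB, EGR1, EGR2 and EGR3 were over 4-fold lower, where 3.08% of genes were. EGR1 had 43.8 and 6.80 CPM in these libraries, EGR2 6.22 and 0.820, and JUNB 71.8 and 17.5. JUN was level at 88.3 and 93.2 CPM. The second count of the same samples in set 2 again had 4 members over 4-fold lower, with 2.07% of genes. Smooth muscle markers summed to 1676 CPM in replicate 1 and 286 CPM in replicate 2 of set 1, and 9 of 19 AP-1 and delayed response targets were over 4-fold lower in replicate 2. Their part was not tested either.

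Replicates of the remaining groups were closer. In MesoT day 22, 0 members were over 4-fold lower in replicate 2, where 0.762% of genes were, and the log2 ratios lay between -1.84 and 0.27. In MLC, 0 members were over 4-fold higher in replicate 2, where 0.134% of genes were, and the log2 ratios lay between -0.68 and 0.73.

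**Figure D3:**
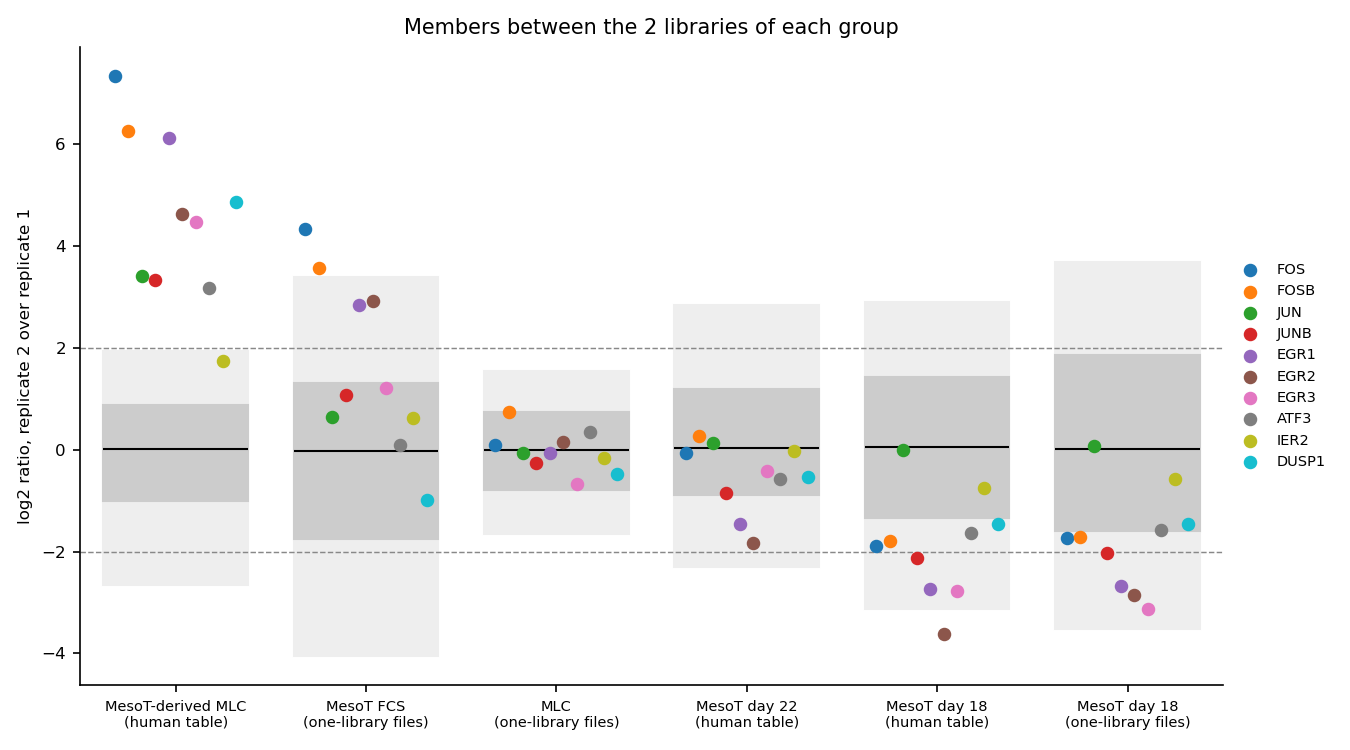
Log2 ratio of replicate 2 over replicate 1 for each member (coloured dots) in 6 pairs of libraries; dark grey covers the middle 90% of all genes tested, light grey the middle 99%, the black line is their median and dashed lines mark 4-fold. All 10 members lie above 0 in MesoT-derived MLC, 9 of 10 lie below 0 in both counts of MesoT day 18, and those of MLC lie between -0.68 and 0.73.

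The test of MesoT-derived MLC against MesoT day 22 asked whether the genes differ between MesoT and the epithelial cells made from it. The members' levels in these libraries were known beforehand, so their p-values are not independent of the choice of genes. Across all genes 612 of 22316 passed (edgeR's quasi-likelihood test, Benjamini-Hochberg adjusted p under 0.05), which is 2.74%, with 1.88% higher and 0.865% lower in MesoT-derived MLC. Of the 10 members 0 passed by this test, and limma voom also called 0. DESeq2 called 3, FOS, FOSB and EGR1, with adjusted p between 0.0330 and 0.0474. Over all genes limma voom called 522 and DESeq2 3538, so member calls by different methods have unlike backgrounds. By edgeR 4 members had an unadjusted p under 0.05. The share over all genes was not counted, so nothing is read from this number. All 10 fitted fold changes were above 1, with a median log2 fold change of 2.69 against -0.05 over all genes. FOS had a log2 fold change of 5.38 ± 2.03 (SE, n = 2 against 2, adjusted p = 0.161 by edgeR), and FOSB of 5.09 ± 1.81 (adjusted p = 0.144 by edgeR). EGR1 stood at 5.12 ± 1.96 (adjusted p = 0.165) and DUSP1 at 3.60 ± 1.41 (adjusted p = 0.172). The adjusted p of the others lay between 0.218 and 0.441, with log2 fold changes of 1.25 ± 0.56 for IER2, 1.60 ± 1.12 for JUNB, 1.86 ± 1.01 for ATF3, 2.07 ± 0.94 for JUN, 2.18 ± 1.66 for EGR2 and 3.20 ± 1.51 for EGR3. By limma voom the log2 fold changes of all 10 were smaller, at 2.70 for FOS, 2.95 for FOSB, 3.205 for EGR1 and 2.14 for DUSP1. The size of these changes thus depends on the method.

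These fold changes rested on 1 library. For 9 members the libraries of the groups overlapped, and only for IER2 were both MesoT-derived MLC libraries above both MesoT day 22 libraries. How many of all genes overlapped was not counted. Without replicate 2 of MesoT-derived MLC the log2 fold change was below 0 for 9 of 10 members, at -0.96 for FOS, -0.18 for FOSB, -0.46 for JUN and -1.63 for EGR2. With 1 library left in the group, that fit assumes that it varies like the other groups.

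Of the 37 other immediate early genes tested, 2 rose and 1 fell in MesoT-derived MLC, beside the 2.74% of all genes that passed. For these 3 the libraries of the groups did not overlap, but leaving out any 1 library of the 2 groups left 0 called genes in the whole comparison. ID3, a BMP-responsive inhibitor of helix-loop-helix factors, fell to 42.8 and 42.9 CPM in MesoT-derived MLC, against 362 and 354 CPM in MesoT day 22 (log2 fold change -3.06 ± 0.30, edgeR adjusted p = 0.0296). ZFP36L2, an RNA-binding protein that speeds mRNA decay, had 228 and 325 CPM against 68.9 and 55.6 CPM (2.15 ± 0.32, adjusted p = 0.0394). MYC, a growth-promoting transcription factor, had 45.9 and 106 CPM in MesoT-derived MLC against 8.23 and 10.5 CPM in MesoT day 22 (3.01 ± 0.51, adjusted p = 0.0466). In the lists of feedback inhibitors, upstream kinases and factors, AP-1 partners, AP-1 and delayed response targets, and heat shock genes, 0 genes passed. An unadjusted p under 0.05 by edgeR was found for 3 of 16, 6 of 22, 5 of 12, 3 of 18 and 0 of 15. The share over all genes was not counted, so nothing is read from these counts.

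The smooth muscle library against MesoT FCS was the second test, and here 1 member rose and 1 fell. As in the first test, the members' levels were known when the list was set. Their p-values are therefore not independent of that choice. ATF3 rose, with 36.8 CPM in the smooth muscle library against 5.58 and 5.97 CPM in MesoT FCS (2.67 ± 0.59 on the log2 scale, SE, edgeR adjusted p = 0.0316). JUN fell, with 117 CPM in the smooth muscle library against 234 and 362 CPM in MesoT FCS (-1.35 ± 0.31, edgeR adjusted p = 0.0356). Across all genes 17.9% of 23049 passed, 10.3% higher and 7.57% lower, so that 2 of 10 members is close to the background. The members had a median log2 fold change of -1.26, against 0.02 over all genes. Without replicate 2 of MesoT FCS the members' median was 0.34, with 5 of the 10 below 0.

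The other 8 members did not pass by edgeR. DESeq2 called 4 of them as well, FOSB (adjusted p = 0.0268), EGR2 (0.00275), IER2 (0.0251) and DUSP1 (0.0399), and limma voom called EGR2 (adjusted p = 0.0363). Over all genes DESeq2 called 6412 and limma voom 4373, against 4123 by edgeR. EGR2 had 26.1 CPM in the smooth muscle library against 0.179 and 1.67 CPM in MesoT FCS (4.85 ± 1.34, edgeR adjusted p = 0.0564), the nearest to the threshold. Its log2 fold change was 7.17 without replicate 2 of MesoT FCS and 3.96 without replicate 1. IER2 had 69.6 CPM against 124 and 190.3 CPM (-1.17 ± 0.37, adjusted p = 0.0785). DUSP1 had 46.5 CPM against 218 and 110.0 CPM (log2 fold change -1.82 ± 0.72). For 9 of the 10 genes the smooth muscle value lay outside the MesoT FCS values, above both for JUNB, EGR2, EGR3 and ATF3 and below both for FOSB, JUN, EGR1, IER2 and DUSP1. With 1 library against 2 this is common without a difference between groups, and the share of all genes was not counted. FOS, at 21.2 CPM in smooth muscle, lay between the 11.5 and 233 CPM of MesoT FCS, and its log2 fold change of -2.53 ± 1.67 became 0.88 without replicate 2 of MesoT FCS.

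Both calls were sensitive to which libraries entered the fit. Without MesoT FCS replicate 2, JUN had an adjusted p of 0.0688 and ATF3 of 0.106 by edgeR, and with only the 3 libraries of these groups 0 genes passed. The smooth muscle group is 1 library, assumed to vary like the other groups, and it holds the stratified epithelium markers given above, whose part in these differences was not tested.

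**Figure D4:**
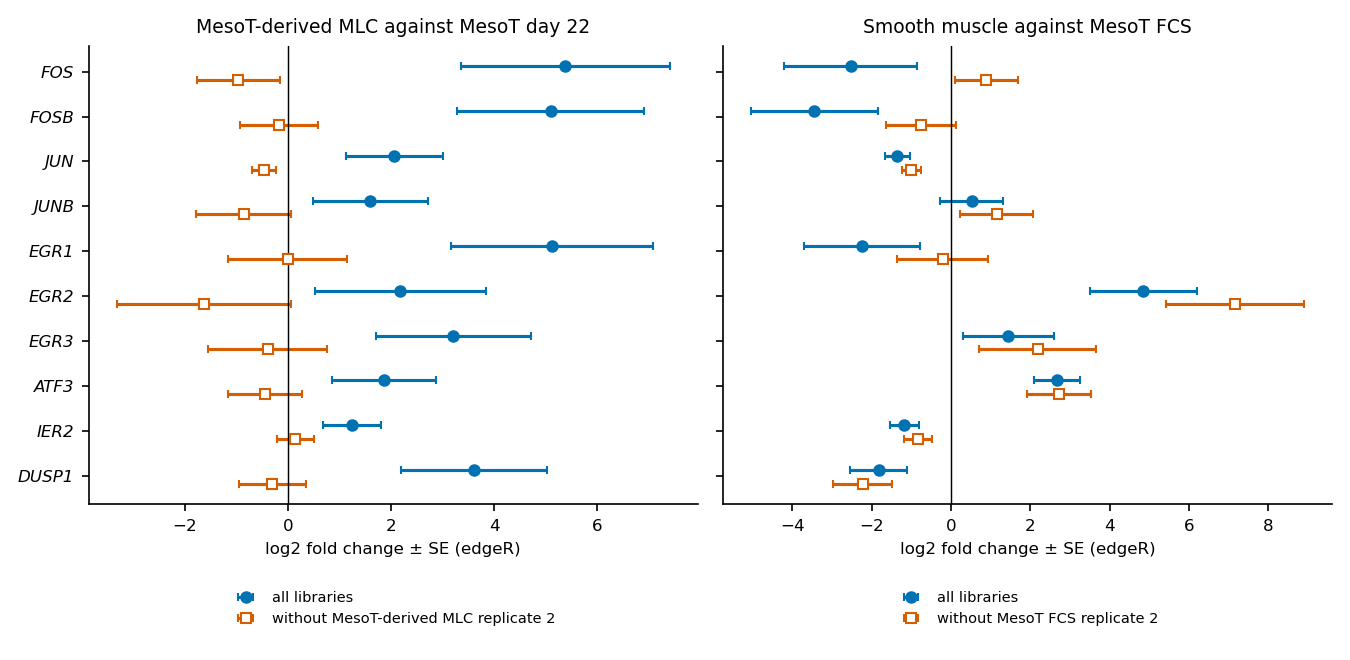
Log2 fold change ± SE from edgeR for each gene in MesoT-derived MLC against MesoT day 22 (left) and smooth muscle against MesoT FCS (right). Filled circles use all libraries and open squares leave out the replicate 2 named in the legend; on the left 9 of 10 squares lie below 0.

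Of 38 other immediate early genes in the smooth muscle comparison, 4 rose and 2 fell, a share of 15.8% where 17.9% of all genes passed. ZFP36L1, an mRNA decay factor, had 993 CPM in the smooth muscle library against 134 and 171 CPM in MesoT FCS (2.71 ± 0.23 as a log2 fold change, edgeR adjusted p = 0.00416). The antiproliferative gene BTG2 had 36.2 CPM against 1.70 and 2.34 CPM (4.17 ± 0.73, adjusted p = 0.0175), and the orphan nuclear receptor NR4A1 50.1 CPM against 11.4 and 9.66 CPM (2.25 ± 0.38, adjusted p = 0.0165). MYC fell to 18.6 CPM in smooth muscle, against 145 and 149 CPM in MesoT FCS (-2.98 ± 0.50, adjusted p = 0.0164).

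Of the 16 feedback inhibitors, 1 rose, the phosphatase DUSP16, with 44.7 CPM in smooth muscle against 15.2 and 11.8 CPM in MesoT FCS (1.72 ± 0.29, edgeR adjusted p = 0.0161). Of 22 upstream kinases and factors, 2 rose, the kinase RPS6KA5 (2.15 ± 0.33) and the SRF partner ELK4 (0.84 ± 0.20), and 1 fell, the JNK gene MAPK8 (-0.79 ± 0.21). Of 12 AP-1 partners ATF7 rose (1.06 ± 0.19). Among 19 AP-1 and delayed response targets 2 fell, the polyamine enzyme ODC1 (-2.92 ± 0.57) and MMP1 (-4.19 ± 1.09). Heat shock genes had 5 lower calls and 0 higher of 16. Among them were the mitochondrial chaperonin HSPD1, at 137 CPM in smooth muscle against 541 and 516 CPM in MesoT FCS, and HSPA8, a constitutive chaperone, at 415 CPM against 1597 and 1535 CPM.

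The remaining contrasts are descriptions. In MLC the pattern was uneven across the 10 genes. FOS had 282 and 301 CPM in MLC, 11.5 and 233 in MesoT FCS, 21.2 in smooth muscle and 11.9 and 3.52 in MesoT day 18. EGR1 had 699 and 671 CPM in MLC, 77.4 and 553 in MesoT FCS, 66.9 in smooth muscle and 43.8 and 6.80 in MesoT day 18. Both genes were highest in both MLC libraries, and the values of MesoT FCS spanned most of the range in between. Mitochondrial transcripts took 6.84% and 7.77% of counts in MLC, against 2.48% to 3.42% in the other libraries of set 1. Hepatocyte and gut epithelium markers summed to 156 and 76.2 CPM in MLC, with 0 of 9 at 0 counts, against 0.773 and 2.36 CPM in MesoT day 18, with 3 of 9 at 0 counts in each. The part of these differences in the members' levels was not tested.

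The rest of the AP-1 genes in MLC were less far from MesoT. FOSB had 26.9 and 44.6 CPM in MLC, 7.50 and 89.3 in MesoT FCS, 4.43 in smooth muscle and 18.6 and 5.64 in MesoT day 18. JUN had 199.6 and 189.6 CPM in MLC, 234 and 362 in MesoT FCS, 117 in smooth muscle and 88.3 and 93.2 in MesoT day 18. JUNB had 61.2 and 51.0 CPM in MLC, 79.7 and 167 in MesoT FCS, 177 in smooth muscle and 71.8 and 17.5 in MesoT day 18. For JUN the 4 groups did not overlap, and MesoT FCS had the highest mean. For JUNB, MLC lay within the spread of MesoT day 18, and the smooth muscle library was the highest.

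ATF3 had 13.6 and 17.4 CPM in MLC, 5.58 and 5.97 in MesoT FCS, 36.8 in smooth muscle and 27.5 and 9.19 in MesoT day 18. EGR2 had 7.77 and 8.66 CPM in MLC, 0.179 and 1.67 in MesoT FCS, 26.1 in smooth muscle and 6.22 and 0.820 in MesoT day 18. EGR3 had 3.96 and 2.46 CPM in MLC, 1.61 and 3.796 in MesoT FCS, 7.32 in smooth muscle and 5.73 and 0.615 in MesoT day 18. For these 3 genes the smooth muscle library was the highest of set 1, and MesoT FCS had the lowest mean. MLC overlapped MesoT day 18 for ATF3 and EGR3.

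IER2 had 161 and 144 CPM in MLC, 124 and 190.3 in MesoT FCS, 69.6 in smooth muscle and 98.3 and 65.5 in MesoT day 18. DUSP1 had 96.0 and 69.2 CPM in MLC, 218 and 110.0 in MesoT FCS, 46.5 in smooth muscle and 47.3 and 17.1 in MesoT day 18. MesoT FCS had the highest mean of both, with DUSP1 clear of MLC and IER2 overlapping it.

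In fitted values, MLC against MesoT day 18 had log2 fold changes of 5.24 ± 1.44 for FOS and 4.76 ± 1.24 for EGR1, the values behind the choice of the list. The other members lay between -0.24 ± 0.49 for ATF3 and 1.56 ± 1.10 for FOSB. Without replicate 1 of MesoT day 18, EGR1 was at 6.75, EGR2 at 3.41 in place of 1.22, EGR3 at 2.47 in place of 0.02 and JUNB at 1.77 in place of 0.33. Of the 10 genes, 7 had both MLC libraries above both MesoT day 18 libraries. The share over all genes was not counted, so nothing is read from this count. MesoT FCS, against the same day 18 libraries, had 3.99 ± 1.36 for FOS, 3.64 ± 1.18 for EGR1, 2.35 ± 0.56 for DUSP1 and 1.72 ± 0.24 for JUN, and -1.67 ± 0.51 for ATF3 and -1.96 ± 1.17 for EGR2. Without replicate 2 of MesoT FCS the FOS value was 0.58 and the EGR1 value 1.61, while FOSB was -0.69 in place of 1.99 and EGR2 -4.28 in place of -1.96. Between MLC and MesoT FCS, 5 fitted values were above 0 and 5 below, from 3.18 ± 1.19 for EGR2 to -1.14 ± 0.67 for JUNB. Without replicate 2 of MesoT FCS, FOS stood at 4.66 in that contrast in place of 1.25, EGR1 at 3.15 in place of 1.12, EGR2 at 5.50 in place of 3.18 and FOSB at 2.25 in place of -0.44.

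The smooth muscle library against MesoT day 18 had its highest log2 fold changes in EGR2 at 2.89 ± 1.23 and JUNB at 1.99 ± 0.78, and FOSB was at -1.45 ± 1.45. Without replicate 1 of MesoT day 18, EGR2 was at 4.96 and JUNB at 3.31 there, and EGR3 at 3.54 in place of 1.203. MLC against smooth muscle was highest for FOS at 3.78 ± 1.80 and EGR1 at 3.36 ± 1.56 and lowest for EGR2 at -1.67 ± 1.22 and JUNB at -1.66 ± 0.78. In set 2, MesoT-derived MLC against MesoT day 18 overlapped for all 10 members, with 5.49 ± 2.04 for FOS and 0.74 ± 1.10 for JUNB. Without replicate 2 of MesoT-derived MLC these were -0.85 and -1.70. MesoT day 22 against day 18 was below 0 for 9 of 10 members, from -1.44 ± 1.59 for FOSB to -0.24 ± 0.91 for JUN, and 0.10 ± 1.72 for FOS, and 8 of 10 overlapped. Without replicate 1 of MesoT day 18, EGR1 stood at 1.21 in that contrast in place of -0.73, EGR2 at 1.70 in place of -1.15 and EGR3 at 0.63 in place of -1.41, and 2 of the 10 members were below 0. That fit sets replicate 2 of day 18 alone against both day 22 libraries. Deviations of same-numbered replicates correlated at 0.56 between the 2 days. Smooth muscle markers of set 2 summed to 1539 and 262 CPM at day 18 and to 1566 and 283 CPM at day 22. The labels state no pairing, and the values here treat the libraries as unpaired. The contrasts given as descriptions share groups with each other, so their values are set side by side only. The share of all genes whose libraries overlap was not counted for any of them.

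**Figure D5:**
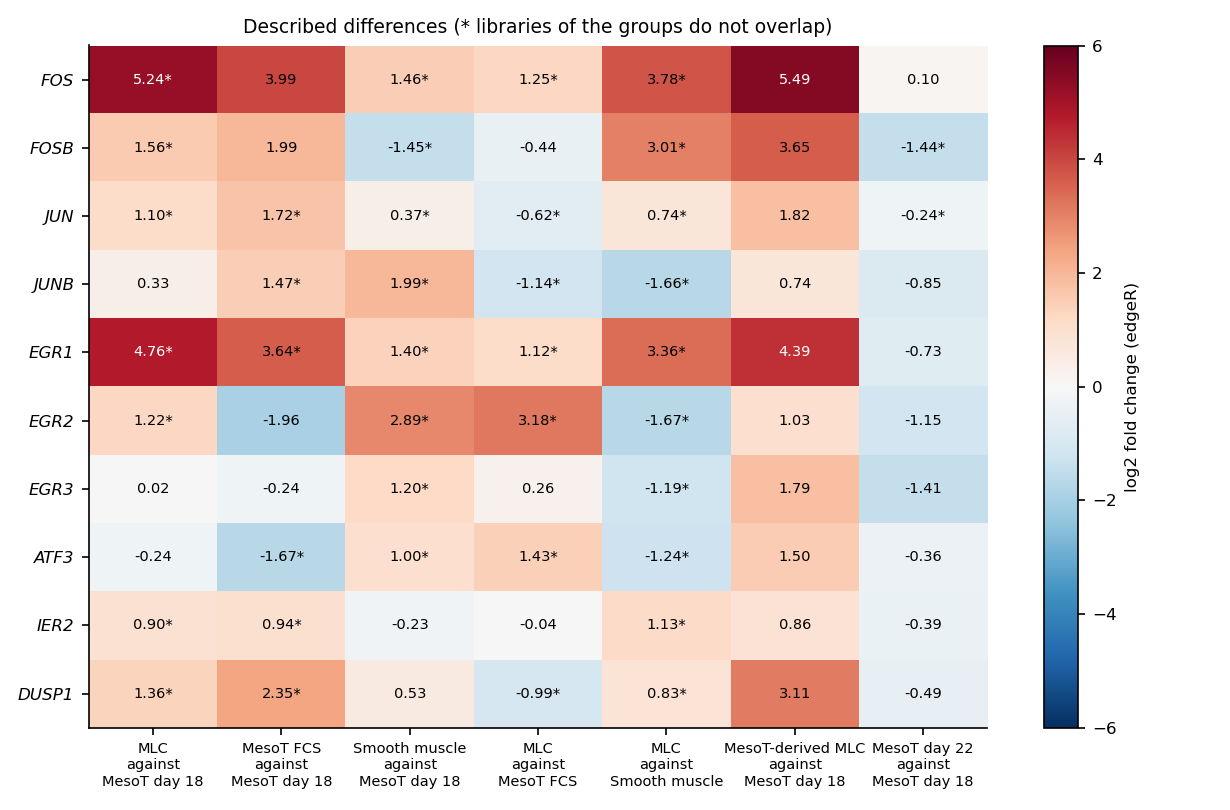
Log2 fold change from edgeR for each gene in 7 contrasts given as descriptions, red above 0 and blue below; an asterisk marks contrasts in which the libraries of the groups do not overlap. In the column of MLC against MesoT day 18, FOS and EGR1 have the highest values (5.24 and 4.76), and the column of MesoT-derived MLC against MesoT day 18 holds no asterisk. How many of all genes would carry an asterisk was not counted.

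How closely a gene followed the mean of the 10 members was measured by Pearson's r of its log2 CPM with the members' mean profile over 7 libraries in set 1 and 6 in set 2, which for set 2 is mainly the contrast of 1 library with the rest. Each member is part of the mean it was set against, which raises its own r. The members themselves had r between 0.916 and 0.994 in set 2. In set 1 EGR1 and FOS followed the mean closely at 0.942 and 0.923, DUSP1 at 0.516 and ATF3 at 0.192. Of 645 other genes that varied enough in both sets, the 6 most alike by the lower of the 2 values were ZFP36 (0.907 and 0.959), KLF4 (0.705 and 0.720), IL1R1 (0.866 and 0.666), PDE4A (0.705 and 0.649), CCN1 (0.647 and 0.972) and CORO6 (0.850 and 0.647). ZFP36, a factor that speeds mRNA decay, had 41.1 and 38.7 CPM in MLC, 24.2 and 58.8 in MesoT FCS, 50.4 in smooth muscle and 17.9 and 7.82 in MesoT day 18. In set 2 it had 18.9 and 259 CPM in MesoT-derived MLC, 15.4 and 10.8 in MesoT day 22, and 22.2 and 9.53 in MesoT day 18. It was highest in the library where all 10 members were highest, which follows from its choice by r in these data.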

How the data were processed

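Gene counts from 11 human libraries in 13 columns were used; the mouse and chromatin samples were not used here. Each deposited file holds counts, whole numbers per Ensembl ID, as the authors made them. The submitters' processing notes list MACS2 2.1.1, featureCounts, Subread 1.4.2, Bowtie2 2.2.9 and TopHat2 2.0.13 beside the build hg19, and state no roles. Which annotation release and strand setting were used for counting is not given in the sources used here, so reads of a gene and of an overlapping antisense gene may not be separated.

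The members and the gene lists were chosen with earlier results of these data known. The lists are known early response genes, their feedback inhibitors, upstream kinases and factors, AP-1 partners and targets, and heat shock genes, with markers of 7 cell types. Named are all 10 members, up to 4 genes of each list with the smallest adjusted p past the threshold in a tested comparison, and the 6 genes most like the members; genes named from the ratio of replicates were chosen after their values were seen.

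Each set was scaled with TMM and filtered with filterByExpr, leaving 23049 and 22316 genes, and tested with edgeR 4.0.16 (quasi-likelihood F test, all libraries of the set, 3 residual degrees of freedom in each, R 4.3.3), with p-values adjusted over all genes of the set. The fits were tested on simulated data in which every gene had the same relative spread between libraries. That setting does not cover genes that differ between replicates as much as the members do. A ± beside a log2 fold change is its standard error. Ratios between replicates were taken on log2 CPM (prior count 2). Nothing in the labels says that replicates are separate cultures, so p-values measure only the spread between these libraries. DESeq2 1.42.0, limma 3.58.1, other scalings and filters and left-out libraries were alternatives. Gene names came from a reference table of Ensembl IDs, which named all 10 members. Motifs were searched in RefSeq promoter windows of GRCh38.p14, whose coordinates were not mixed with those of hg19. Figures were drawn with matplotlib 3.10.9.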

Additional observations from a re-analysis of the deposited data

How the results depend on the processing

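In MesoT-derived MLC against MesoT day 22, DESeq2 called 3538 genes and 3 members, the 2 groups alone gave 1870 genes and the replicate number as a block gave 1120, against 612 genes and 0 members. Leaving out 1 library gave between 0 and 1671 genes, with 0 after leaving out any library of the 2 groups, and 0 members each time. The log2 fold changes of members with 1 library left out ran between -0.96 and 6.38 for FOS, -0.18 and 6.08 for FOSB, -0.46 and 2.94 for JUN, -0.86 and 2.47 for JUNB, -0.0042 and 6.10 for EGR1, -1.63 and 3.45 for EGR2, -0.39 and 4.15 for EGR3, -0.45 and 2.72 for ATF3 and -0.30 and 4.56 for DUSP1; each lowest value is the one without replicate 2 of MesoT-derived MLC.

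In smooth muscle against MesoT FCS the main fit called 4123 genes and 2 members. DESeq2 called 6412 genes and 6 members, and no filter on low counts gave 4601 genes and 4 members. The replicate number as a block gave 3123 genes and 1 member (DUSP1), and the 2 groups alone 0 genes and 0 members. Leaving out 1 library gave between 1027 and 6524 genes and between 0 and 5 members, and a log2 fold change of FOS between -3.46 and 0.88. The adjusted p by edgeR, DESeq2 or limma voom over these alternatives lay between 0.00109 and 0.121 for JUN and between 0.000709 and 0.111 for ATF3, whose signs held throughout. The causes of these shifts were not tested.

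The replicate numbers share no stated batch, culture or day. The correlation of same-numbered deviations was -0.06 between MesoT day 22 and MesoT-derived MLC and 0.56 between MesoT day 18 and day 22 in the table, and between 0.01 and 0.07 in the one-library files. Of the other results on single members in the tested comparisons, 241 kept direction and side of the threshold, 18 passed it only under an alternative and 11 lost it. Smooth muscle against MesoT day 18 for JUN was -0.03 by library totals, in place of 0.37. Counts of members past 4-fold between replicates were equal under the other scalings and under a prior count of 0.5, which were chosen after seeing the data, except that MesoT day 18 had 3 members over 4-fold lower by library totals alone, in place of 4, in both sets. Low counts limit EGR2 and EGR3, with 4 to 30 counts of EGR2 in MesoT FCS.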
